A study of Mus musculus with 12 samples.

Results

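Wild-type (WT) mouse spheroids were compared between 24 h and 48 h after the induction of 3D differentiation. All WT spheroid libraries of the series were taken, 2 at each time, giving 4 of the 12 libraries. The WT cells were parental R1 embryonic stem cells (ESCs), a mouse line, cultured with LIF and 10% FBS before induction. Spheroids were grown with growth factor-reduced Matrigel, a basement membrane extract, in 15% FBS without LIF. The labels describe the cells as embedded in it, whereas the methods of the study give, for molecular experiments, cells seeded on top of a Matrigel coat under medium that also held Matrigel. Thus all 4 libraries shared the same matrix, serum and absence of LIF, and differed by label in time alone. The other 8 libraries were WT ESCs before induction and a single Cidea knockout (KO) clone, numbered 19.7, before induction and at 24 h and 48 h, with 2 libraries in each group. In this clone the whole Cidea locus had been deleted by CRISPR-Cas9, and CIDEA is a lipid droplet protein that fuses small droplets into larger ones. Poly(A) RNA was sequenced from whole spheroids. The design addresses how the transcriptome changes on the second day, when spheroids that have polarised go on to open a lumen. Because these are bulk samples, fewer cells of a type and less RNA per cell cannot be told apart. The study calls the libraries of a group independent samples and biological replicates. The p-values rest on a spread between replicates estimated over all 12 libraries in 6 groups, not over the WT spheroids alone.

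ESCs in LIF hold a naive state that resembles the pre-implantation epiblast and is kept by transcription factors such as KLF4, ESRRB and NANOG. When LIF is withdrawn, cells pass through a formative state, marked by FGF5, OCT6 (Pou3f1) and de novo DNA methyltransferases, and become primed for lineage choice while still expressing OCT4 and SOX2. In a basement membrane gel the transition is coupled to epithelial polarisation, delivery of the sialomucin PODXL to the apical side and opening of a central cavity.

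The 4 WT spheroid libraries held 29271055 to 35654679 estimated counts, and 17424 genes were tested. Levels are given as TPM, transcript abundances scaled per length and to one total in each library, and differences as log2 fold changes of 48 h over 24 h ± SE fitted on counts. A gene was called where the Benjamini-Hochberg adjusted p over all genes tested was under 0.05. As a check of the labelled cell type, the pluripotency factor transcripts Pou5f1 and Sox2 were abundant in all 4 libraries, while Gata6 and Sox17 of primitive endoderm and Cdx2 of trophoblast were under 1 TPM. Gata4, another endoderm factor, was at 1.27 to 3.29 TPM. Mitochondrial transcripts took 2.4% and 2.63% of counts at 24 h and 4.34% and 3.87% at 48 h, and the part of this shift in the results was not tested. The KO clone held no Cidea count in any of its 6 libraries. The first KO library at 24 h stood apart, with 15474 genes detected at equal depth against 17664 to 19672 in the WT spheroids.

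Of the 17424 genes, 1418 (8.14%) were called between 24 h and 48 h. Among them 572 genes (3.28%) rose and 846 (4.86%) fell. Most changes were modest, with a median log2 fold change of 0.63 in the genes that rose and -0.59 in those that fell, and 286 genes changed by at least 1 on the log2 scale (136 higher and 150 lower). In 94.6% of the called genes the TPM values of the times did not overlap and lay apart in the direction of the fitted change. Over all genes tested, 48.9% lay apart in either direction. The genes were called on these same libraries, so the shares are a description and no support for the calls. The median over all genes was 0.01. The size of the response depended on the method, since 565 genes were called when average transcript lengths entered as offsets, 420 (114 higher and 306 lower) by limma on log2(TPM + 0.1), 653 to 926 when 1 WT spheroid library was left out and 2218 without the first KO library at 24 h. Of the 1418 genes, 272 (67 higher and 205 lower) were called in all 15 alternative fits, and that count out of 15 is given below as a measure of how firmly a gene stands.

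**Figure D1:**
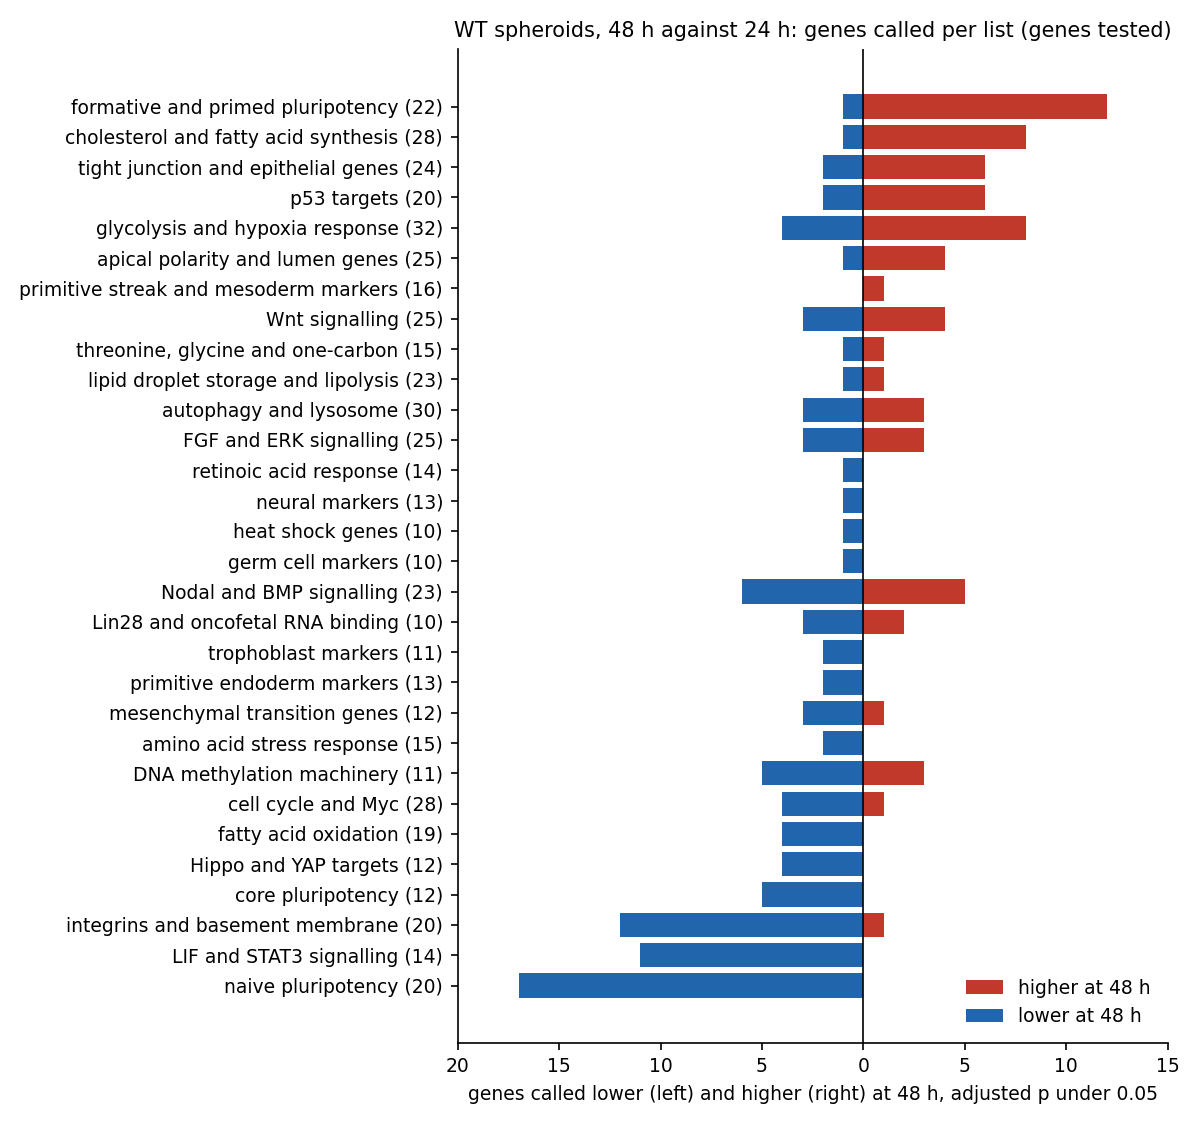
Number of called genes in each gene list for WT spheroids at 48 h against 24 h, with genes that rose drawn to the right of 0 and genes that fell to the left. Naive pluripotency (17 of 20 lower), LIF and STAT3 signalling (11 of 14 lower) and integrins and basement membrane (12 of 20 lower) lie mostly to the left, while formative and primed pluripotency (12 of 22 higher) lies mostly to the right.

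Naive pluripotency genes declined further on the second day. Of 20 members, 17 fell, none rose, and the median log2 fold change was -0.92, while 4.86% of all genes tested fell. Their summed level went from 4420 and 4550 TPM at 24 h to 2808 and 2595 TPM at 48 h. The genes that fell comprised transcription factors, the 5-methylcytosine oxidase gene Tet2, the growth factor gene Fgf4 and Tdh, which encodes the threonine dehydrogenase that feeds one-carbon metabolism in mouse ESCs. Over the 15 alternatives 13 to 17 members fell, and 13 of the 17 were called in every one.

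Klf4 (chr4:55527143-55532466, GRCm38), a Krüppel-like factor downstream of LIF, showed the steepest loss of the list. It stood at 49.9 and 52.9 TPM at 24 h and at 9.04 and 10.7 TPM at 48 h, a log2 fold change of -2.35 ± 0.10 (adjusted p = 1.3e-11). Klf4 at 48 h was thus about 5.08-fold lower than at 24 h, with no overlap between the times. Tbx3, a T-box factor of the same network, dropped from 59.0 and 46.4 TPM to 16.7 and 15.4 TPM (-1.60 ± 0.14). Tfcp2l1, another factor of the LIF pathway, declined from 16.5 and 16.6 TPM to 6.08 and 6.37 TPM (-1.37 ± 0.13). These 3 genes had already been lower at 24 h than in ESCs before induction, with first-day log2 fold changes of -1.82, -1.38 and -2.03.

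Nanog, a homeodomain factor of the naive network, moved from 166 and 184 TPM to 73.5 and 75.2 TPM (-1.20 ± 0.08, adjusted p = 1.88e-08). Esrrb, an orphan nuclear receptor, moved from 167 and 160 TPM to 73.2 and 80.3 TPM (-1.07 ± 0.07, adjusted p = 7.7e-09). Zfp42, which encodes REX1 and is widely used as a naive reporter, moved from 432 and 418 TPM to 182 and 191 TPM (-1.16 ± 0.07). In each of the 3 genes the times were well apart and every alternative made the call. Zfp42 differed in its timing, since its first-day change was -0.36 and the second-day change was steeper (adjusted p of the difference = 0.00049). Tcl1, a cofactor of AKT, showed the opposite order, with -1.95 on the first day and -1.03 ± 0.11 on the second (adjusted p of the difference = 0.0062). In such differences both days share the 24 h libraries, and the first also covers the change from LIF medium to the gel. Prdm14, a repressor of FGF signalling and DNA methylation, went from 13.7 and 12 TPM to 4.66 and 5.33 TPM (-1.32 ± 0.26, called in 12 of 15 alternatives).

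The other 3 members of the list did not pass the test. Klf2 overlapped between times, at 194 and 161 TPM against 141 and 189 TPM (-0.06 ± 0.15, adjusted p = 0.903), after a first-day value of -1.39. Klf2 and Klf4, both Krüppel-like factors, therefore gave different values on the second day, although the difference between them was not tested. Dppa3, at 2.54 and 6.68 TPM against 10.7 and 7.26 TPM, and Sox15, at 21.4 and 17.3 TPM against 10.4 and 13.8 TPM, had adjusted p of 0.493 and 0.23.

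**Figure D2:**
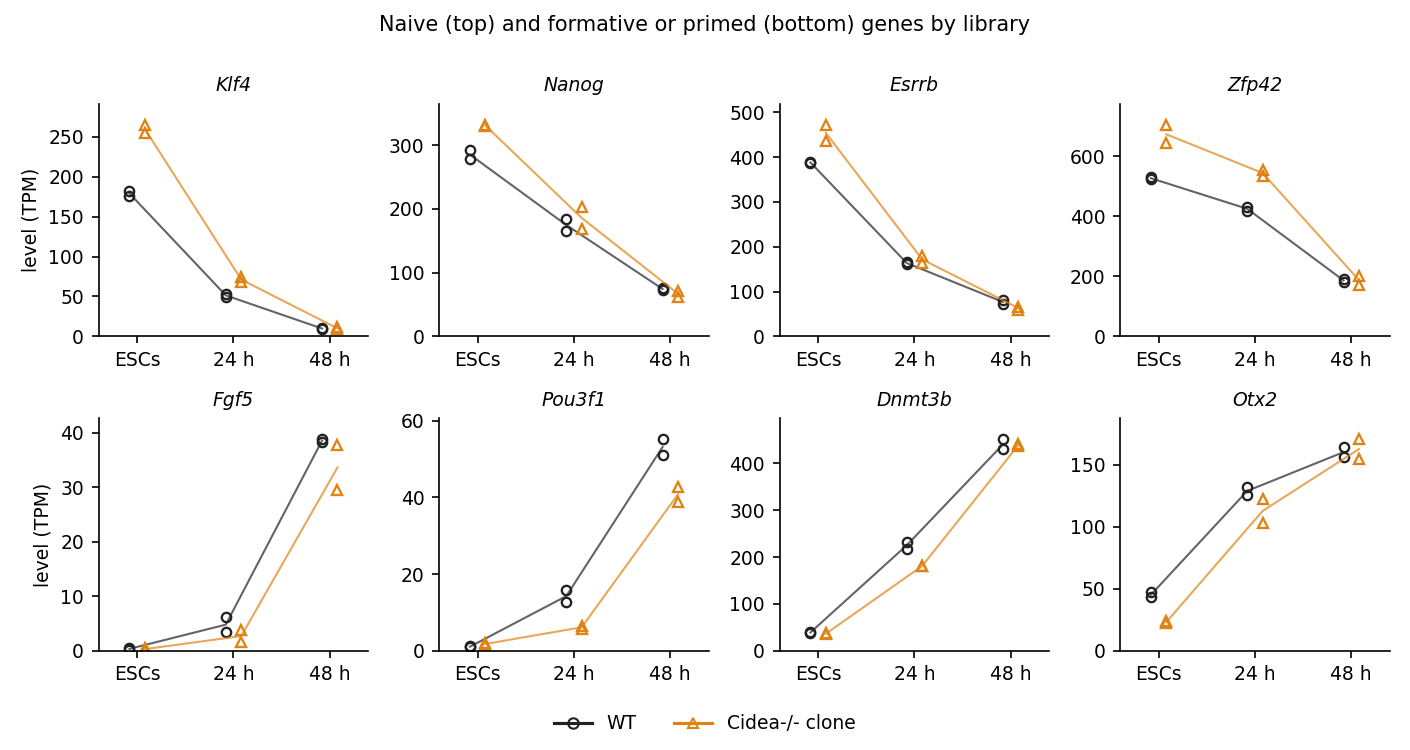
TPM of 8 pluripotency genes in ESCs before induction and in spheroids at 24 h and 48 h, with circles for WT libraries, triangles for libraries of the KO (Cidea-/-) clone and lines joining the group means. Klf4, Nanog, Esrrb and Zfp42 are lower at 48 h than at 24 h, while Fgf5, Pou3f1 and Dnmt3b are higher.

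The promoters of 2 genes that moved in opposite directions are shown, because both hold the octamer bound by POU factors such as OCT4 and OCT6. Zfp42 fell, whereas Pim2, a serine/threonine kinase gene picked after its values were seen, rose from 133 and 109 TPM to 381 and 334 TPM (1.60 ± 0.09, adjusted p = 4.29e-09, called in 15 of 15 alternatives). The 250 bases before the start of each gene are printed from RefSeq (GRCm38.p6), 5′ to 3′ on the strand of the gene, with octamers in capitals. The Zfp42 stretch is chr8:43307010-43307259 on the minus strand, with the octamer on the opposite strand 186 to 179 bases before the start. The Pim2 stretch is chrX:7878056-7878305 on the plus strand, with octamers 202 to 195 bases (opposite strand) and 123 to 116 bases (same strand) before the start.
Zfp42: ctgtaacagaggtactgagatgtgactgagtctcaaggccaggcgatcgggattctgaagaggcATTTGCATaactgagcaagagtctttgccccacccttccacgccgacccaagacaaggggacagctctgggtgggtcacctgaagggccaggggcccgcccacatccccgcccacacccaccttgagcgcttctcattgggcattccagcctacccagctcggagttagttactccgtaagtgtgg
Pim2: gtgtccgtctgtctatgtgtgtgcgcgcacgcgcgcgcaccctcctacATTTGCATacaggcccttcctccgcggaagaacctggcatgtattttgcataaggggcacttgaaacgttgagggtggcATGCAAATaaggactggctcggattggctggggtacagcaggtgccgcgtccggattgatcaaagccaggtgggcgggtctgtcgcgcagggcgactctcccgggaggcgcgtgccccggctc
The octamer ATGCAAAT, on either strand, was found in 1.22% of the promoter windows of genes that rose, 1.60% of those that fell and 1.36% of all 15773 windows of tested genes. Each window ran from 250 bases before to 50 bases after a start, and 12470 of 17408 tested symbols (71.6%) had at least 1. The letters were thus about as frequent in genes of either direction as in all genes. Among called genes with a window, the octamer was in 1 of 11 of the naive list (Zfp42) and 0 of 11 of the formative and primed list. The same search, on both strands and in the same order of groups, found a KLF pattern (GGGNGTGG) in 25.3%, 23.9% and 22.4% of windows, a TCF/LEF pattern (CTTTGAT) in 2.45%, 2.86% and 2.76%, a STAT3 pattern (TTCCNGGAA) in 0.35%, 0.57% and 1.21%, an ESRRB pattern (TCAAGGTCA) in 0.35%, 0% and 0.26%, and a GRHL pattern (AACCNGGTT) in 0.35%, 0.46% and 0.27%. The rarer patterns rest on 0 to 5 windows in each group of called genes.

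Core pluripotency genes changed less and in part. Of 12 members 5 fell (41.7% against 4.86% of all genes), none rose, and the list median was -0.05. Pou5f1, which encodes OCT4, was level between ESCs and 24 h (first-day value 0.02) and then moved from 1567 and 1580 TPM to 1049 and 1129 TPM (-0.50 ± 0.07, adjusted p = 5.71e-05). Trim28, a corepressor of retroelements, moved from 1733 and 1675 TPM to 1327 and 1286 TPM (-0.51 ± 0.07). Sall4 (-0.47), Dppa2 (-0.46) and L1td1 (-0.28) completed the genes that fell, called in 12, 14 and 10 of 15 alternatives. Sox2, the partner of OCT4, stood at 286 and 319 TPM at 24 h and 277 and 321 TPM at 48 h (0.02 ± 0.08, adjusted p = 0.954). Utf1 and Lin28a, with first-day values of 0.93 and 1.02, also missed the threshold, at 0.04 ± 0.09 and -0.06 ± 0.07.

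Formative and primed genes moved the other way. Of 22 members 12 rose, 1 fell, and the median was 0.34, while 3.28% of all genes tested rose. The count of members that rose was 4 to 14 over the alternatives, with 4 by limma on log2(TPM + 0.1) and 8 without either WT library at 24 h. Fgf5 (chr5:98254184-98277030), a growth factor gene of the post-implantation epiblast, was at 0.183 and 0.489 TPM in ESCs before induction, 6.14 and 3.41 TPM at 24 h and 38.8 and 38.4 TPM at 48 h. Its second-day log2 fold change was 3.09 ± 0.36 (adjusted p = 0.000234), about 8.50-fold, and every alternative in which it was tested called it. Pou3f1 (chr4:124656807-124660655), encoding OCT6, rose from 15.8 and 12.6 TPM to 51.2 and 55.2 TPM (1.94 ± 0.14, adjusted p = 3.46e-08). Sox11, a neural and epiblast SOX factor, rose from 4.09 and 3.67 TPM to 8.90 and 8.47 TPM (1.20 ± 0.15). In these 3 genes the lowest 48 h library lay at more than 2 times the highest 24 h library.

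Otx2, a homeodomain factor that marks the exit from the naive state, stood at 126 and 132 TPM at 24 h and 156 and 165 TPM at 48 h. This rise was small (0.31 ± 0.09, adjusted p = 0.0433) and was called in 7 of 15 alternatives, with adjusted p from 0.0097 to 0.32, after 1.48 on the first day. Lef1, a transcription factor of the Wnt pathway, was called on counts (1.04 ± 0.19) although its TPM values overlapped, at 24.7 and 14.4 TPM against 20.9 and 29.8 TPM. Cldn6, Lin28b, Sall2, Podxl, Zic5 and Dnmt3a also rose, by 0.83, 0.75, 0.59, 0.50, 0.38 and 0.24. Sox3, a SOXB1 factor, was at 3.09 and 3.20 TPM and then 5.38 and 9.52 TPM (1.28 ± 0.41, adjusted p = 0.0617).

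Of 11 genes of the DNA methylation machinery 3 rose and 5 fell, 27.3% and 45.5% against 3.28% and 4.86% of all genes. Dnmt3b, a de novo methyltransferase, rose from 232 and 218 TPM to 451 and 430 TPM (1.04 ± 0.07, adjusted p = 7.68e-09), following 2.42 on the first day. Dnmt3a, the second de novo enzyme, gave 234 and 219 TPM and then 312 and 260 TPM (0.24 ± 0.07, called in 7 of 15 alternatives), following 2.02 on the first day. Dnmt3l, a cofactor of both that lacks catalytic activity, fell from 380 and 339 TPM to 194 and 182 TPM (-0.90 ± 0.08). The demethylating oxidases Tet2 (-1.17) and Tet1 (-0.79 ± 0.16, adjusted p = 0.0201) and the imprint guardian Zfp57 (-0.90) fell as well. Uhrf1, which recruits the maintenance enzyme, fell by 0.35, and the glycosylase gene Tdg rose by 0.49.

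LIF was absent from the medium at both times, and the summed transcripts of its pathway list declined again between 24 h and 48 h. Of 14 LIF and STAT3 genes 11 fell (78.6% against 4.86% of all genes) and none rose. The median was -0.75, and 4 to 11 fell over the alternatives, with 4 by limma. Of the 11, Klf4, Tfcp2l1 and Gbx2 are also in the naive list. Summed TPM went from 754 and 827 in ESCs to 291 and 281 at 24 h and 149 and 164 at 48 h. Socs3, the feedback inhibitor that STAT3 induces, was at 85.4 and 91.6 TPM in ESCs, 7.30 and 6.90 TPM at 24 h and 2.34 and 1.93 TPM at 48 h (-1.62 ± 0.19, adjusted p = 2.13e-05). Its first-day value was -3.76, larger in size than that of the second day (adjusted p of the difference = 0.00031). The receptor chains were affected too, Lifr with -0.59 ± 0.09 and overlapping TPM values, and Il6st from 29.1 and 27.5 TPM to 19.7 and 19.7 TPM (-0.54 ± 0.10). Stat3 itself moved from 35.9 and 28.9 TPM to 21.0 and 25.3 TPM (-0.57 ± 0.10), and Pim3, a kinase target, from 51.0 and 47.6 TPM to 25.3 and 27.8 TPM (-0.83 ± 0.10). Jak1, the receptor kinase gene, at 14.3 and 19.3 TPM against 13.4 and 13.9 TPM, did not pass (adjusted p = 0.378), nor did Lif or Osmr.

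Nodal and the TGFβ-family ligands signal through SMAD2/3 in the epiblast, BMPs through SMAD1/5, and LEFTY proteins are secreted inhibitors of Nodal. Of 23 genes 5 rose and 6 fell, 21.7% and 26.1% against 3.28% and 4.86% of all genes, with a median of -0.10. Lefty1 (chr1:180935022-180938400) stood at 99.9 and 94.8 TPM in ESCs, 27.6 and 21.2 TPM at 24 h and 108 and 99.6 TPM at 48 h. Its first-day value was -2.13, and on the second day it rose by 2.02 ± 0.12 (adjusted p = 4.46e-09, called in all alternatives), back near the values of ESCs. Lefty2 followed the same course, from 166 and 171 TPM to 36.1 and 38.5 TPM and then 102 and 97.2 TPM (second day 1.43 ± 0.17, called in 12 of 15 alternatives). The SMAD corepressor Skil (0.77) and the inhibitory Smad7 (0.55, called in 9 of 15 alternatives) also rose. Nodal itself, at 47.6 and 48.3 TPM against 42.7 and 40.1 TPM, did not pass (-0.18 ± 0.14, adjusted p = 0.564).

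On the BMP side, Bmp4 fell from 45.9 and 35.4 TPM to 22.4 and 32.7 TPM (-1.12 ± 0.14, adjusted p = 1.88e-05, called in 12 of 15 alternatives). The ID genes are classical BMP-SMAD targets whose products block bHLH factors. Id1 was at 121 and 110 TPM in ESCs, 463 and 422 TPM at 24 h and 222 and 252 TPM at 48 h, a first-day value of 1.88 and a second-day value of -0.87 ± 0.13. Id3 gave 1.94 and then -0.45 ± 0.10, and Id2 gave 0.95 and then -0.39 ± 0.10, called in 9 and 8 of 15 alternatives. All 3 ID genes at 48 h lay below 24 h and above ESCs in every WT library. Gdf3, a TGFβ-family ligand gene, and Pcsk6, a convertase that cleaves Nodal, fell by 0.58 and 0.59.

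**Figure D3:**
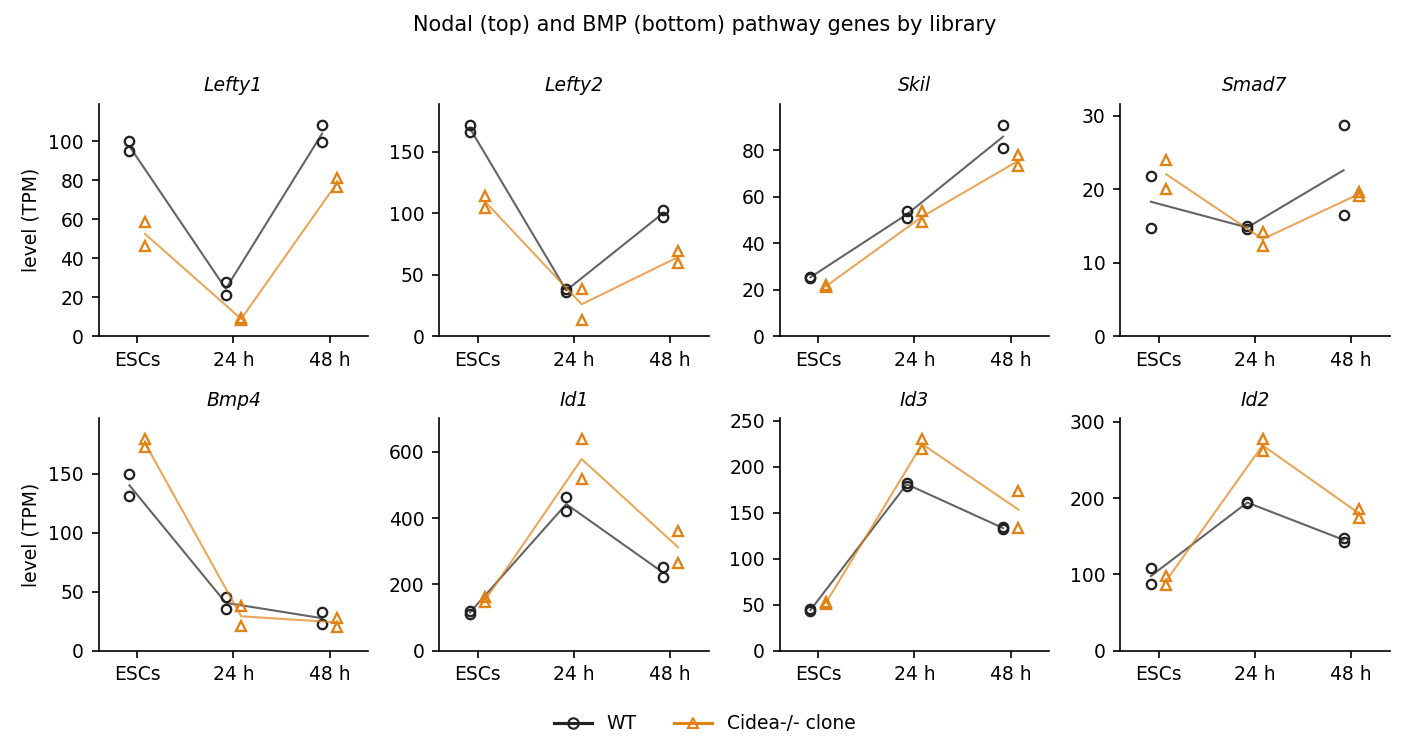
TPM of 8 Nodal and BMP pathway genes in ESCs before induction and in spheroids at 24 h and 48 h, with circles for WT libraries, triangles for libraries of the KO (Cidea-/-) clone and lines joining the group means. Lefty1 and Lefty2 have their lowest WT levels at 24 h, and Id1 its highest.

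FGF and Wnt genes changed in both directions. Of 25 FGF and ERK genes 3 rose and 3 fell, 12% each way against 3.28% and 4.86% of all genes. Besides Fgf5, the ERK phosphatase gene Dusp4 rose from 19.7 and 17.6 TPM to 44.7 and 40.0 TPM (1.22 ± 0.19, adjusted p = 0.00068). The antagonist Spry1 rose by 0.67 while its paralog Spry4 fell by 0.31, each called in 8 of 15 alternatives. Fgf4, the ESC ligand, fell from 138 and 149 TPM to 109 and 99.2 TPM (-0.42 ± 0.09), so that Fgf4 and Fgf5 changed in opposite directions. Of 25 Wnt genes 4 rose and 3 fell, 16% and 12% of the list. Tcf7, a nuclear effector, rose from 63.8 and 72.9 TPM to 98.9 and 106 TPM (0.60 ± 0.09), and the receptors Fzd7 and Lrp5 rose by 0.48 and 0.47. The secreted antagonists Sfrp1 and Notum fell, Sfrp1 from 30.6 and 33.5 TPM to 13.4 and 13 TPM (-1.24 ± 0.09, adjusted p = 4.3e-08) and Notum by 0.77. Ccnd1, a cyclin gene and Wnt target, fell by 0.52. Of 14 retinoic acid genes only the receptor Rarg was called, at -0.45 ± 0.07, which is 7.14% of the list against 4.86% of all genes. The list median was 0.37, and 9 of the 14 fitted values were above 0.

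Several epithelial genes rose modestly. Of 24 tight junction and epithelial genes 6 rose and 2 fell, 25% and 8.33% against 3.28% and 4.86% of all genes. Their median was 0.30, and 4 to 7 rose over the alternatives. Cdh1, encoding E-cadherin, rose from 196 and 206 TPM to 260 and 257 TPM (0.43 ± 0.06, adjusted p = 5.58e-05). Epcam, another adhesion molecule, rose from 103 and 107 TPM to 134 and 154 TPM (0.49 ± 0.09). Esrp1, a regulator of epithelial splicing, rose from 24.6 and 22.3 TPM to 39.5 and 41.0 TPM (0.79 ± 0.11). These 3 genes, with Cldn6, were called in every alternative, whereas Cldn7 (1.01 ± 0.29) and Esrp2 (0.87 ± 0.25) were called in 8 and 7 of 15. Jup, encoding plakoglobin of desmosomes and adherens junctions, fell from 185 and 171 TPM to 120 and 132 TPM (-0.59 ± 0.09), and Grhl3, a surface ectoderm factor, fell by 0.71.

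Among 25 genes of apical polarity and the lumen 4 rose and 1 fell, 16% and 4% against 3.28% and 4.86% of all genes. Podxl (chr6:31519488-31563981), encoding the sialomucin that coats the apical membrane, stood at 18 and 24.4 TPM in ESCs, 25.6 and 30.1 TPM at 24 h and 39.9 and 36.0 TPM at 48 h. The rise was 0.50 ± 0.09 (adjusted p = 0.00165, called in 12 of 15 alternatives) and the first-day value was 0.59. Rab25, a GTPase of apical recycling endosomes, rose from 5.52 and 8.67 TPM to 14.4 and 12.2 TPM (1.44 ± 0.42, called in 7 of 15 alternatives). Patj, of the Crumbs complex (1.02 ± 0.26), and Cgn, encoding cingulin of tight junctions (0.65 ± 0.13), rose too. Crb3, the Crumbs subunit of simple epithelia, was at 9.95 and 9.44 TPM and then 16.3 and 15.4 TPM, without passing the test (0.90 ± 0.28, adjusted p = 0.0564). Pard3 and Ezr, encoding a scaffold of the PAR complex and the apical linker ezrin, overlapped between times (0.12 ± 0.08 and 0.00 ± 0.08). Slc9a3r1, a PDZ scaffold that binds PODXL and ezrin, fell from 157 and 149 TPM to 108 and 121 TPM (-0.38 ± 0.10).

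Of 12 mesenchymal transition genes 3 fell and 1 rose, 25% and 8.33% against 4.86% and 3.28% of all genes. The list median was 0.34. It turned to -0.08 with at least 10 counts in every library and to -0.10 without the first WT library at 48 h. In this list 3 genes were under 1 TPM in every WT spheroid library. Vim, encoding vimentin, fell from 129 and 122 TPM to 61.0 and 59.5 TPM (-0.82 ± 0.08, adjusted p = 1.8e-06). Zeb1, a repressor of Cdh1, fell on counts (-0.90 ± 0.24), with 24 h libraries of 26.6 and 4.45 TPM that lay far from each other. Cdh2, encoding N-cadherin, rose from 4.23 and 4.33 TPM to 7.38 and 8.25 TPM (0.99 ± 0.20). Of 12 Hippo and YAP genes 4 fell (33.3% against 4.86% of all genes) and none rose. Among those that fell, Tead1 went from 23.7 and 23 TPM to 16.9 and 12.6 TPM (-0.79 ± 0.09).

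Integrin and basement membrane genes mostly fell. Of 20 genes 12 fell and 1 rose, 60% and 5% against 4.86% and 3.28% of all genes. The median was -0.37 (4 to 12 lower over the alternatives, with 4 by limma and 6 without the first WT library at 48 h). Lama1, encoding the laminin α1 chain of embryonic basement membrane, stood at 22.6 and 20.4 TPM in ESCs, 5.18 and 5.28 TPM at 24 h and 1.72 and 1.32 TPM at 48 h (-1.61 ± 0.15, adjusted p = 5.6e-07). Nid1, encoding the linker nidogen 1, fell from 24.9 and 30.9 TPM to 10.9 and 12.5 TPM (-1.23 ± 0.12). Col4a1, a type IV collagen chain, fell from 26.6 and 29.3 TPM to 12 and 8.39 TPM (-1.18 ± 0.12), and Col4a2, from the neighbouring gene, fell by 0.73. Hspg2, encoding perlecan, fell from 33.1 and 30.1 TPM to 17.0 and 14.1 TPM, with a less firm call (-1.0 ± 0.22, adjusted p = 0.037, 10 of 15 alternatives). Lamb1, the laminin β1 chain, went against the list and rose from 25.3 and 25.7 TPM to 37.9 and 38.2 TPM (0.59 ± 0.09).

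Among the receptors, Itga5, the fibronectin receptor subunit, fell from 27.8 and 30.3 TPM to 12.6 and 19.1 TPM (-0.88 ± 0.11), and Itgb5 fell by 0.61. Itgb4 was called on counts (-0.84 ± 0.24) while its TPM values overlapped. Itgb1, the β1 subunit shared by most laminin and fibronectin receptors, was at 105 and 106 TPM and then 101 and 99.7 TPM (-0.02 ± 0.07, adjusted p = 0.941). Sparc, a matrix glycoprotein gene, fell from 143 and 130 TPM to 77.4 and 78.8 TPM. Lama1 and Sparc were also the 2 of 13 tested primitive endoderm markers that fell, 15.4% against 4.86% of all genes. The summed level of all 16 listed markers of primitive endoderm went from 164 and 151 TPM to 95.2 and 95.6 TPM. The endoderm factors Gata6 and Sox17 were under 1 TPM in all 4 libraries. The part of such cells in the matrix values was not tested.

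**Figure D4:**
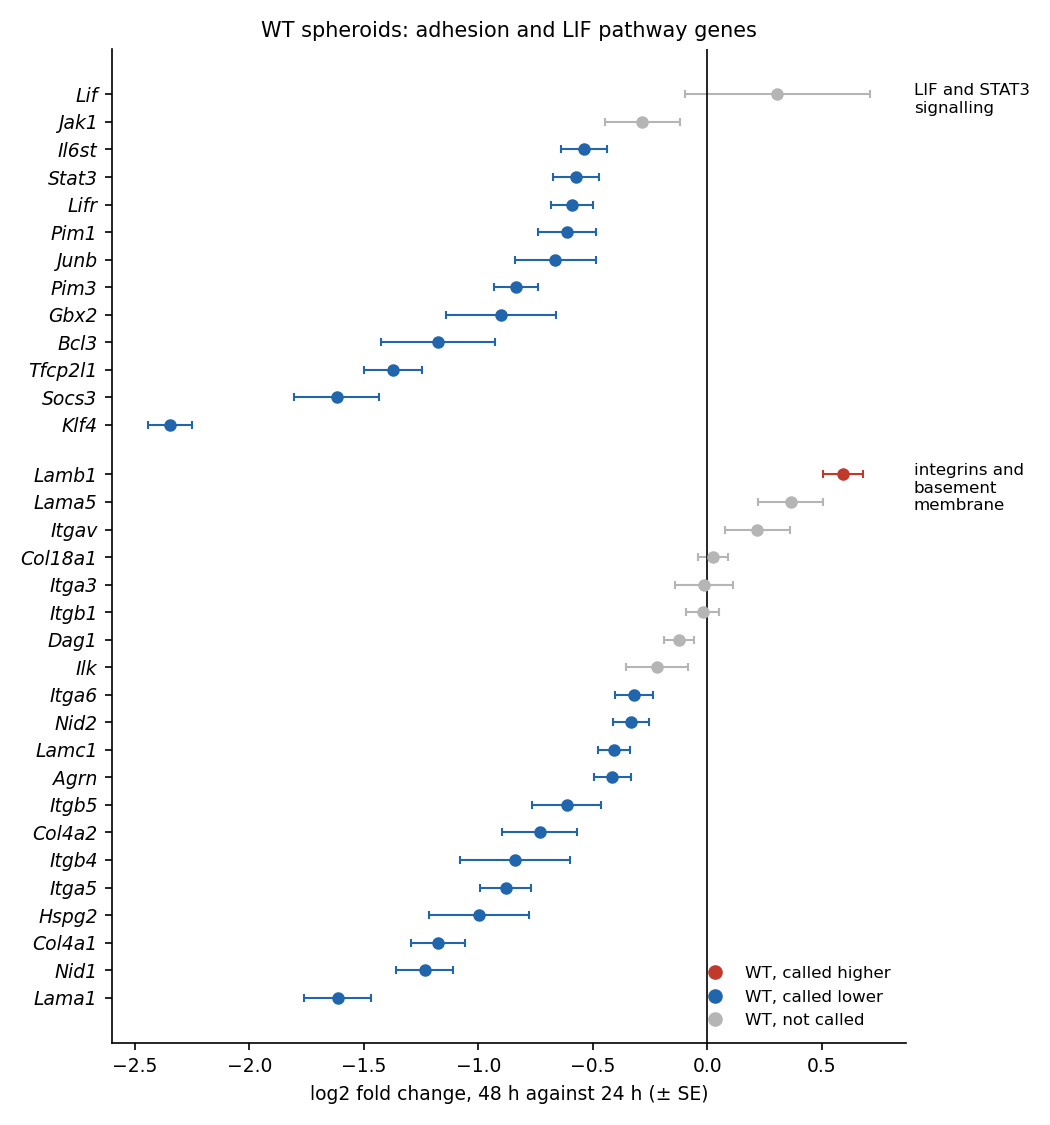
Log2 fold change of WT spheroids at 48 h over 24 h ± SE for genes of the integrin and basement membrane list and of the LIF and STAT3 list, without Osmr, whose SE was above 1. Red and blue points are genes called higher and lower and grey points were not called, with Lamb1 above 0 and Lama1, Nid1, Socs3 and Klf4 below.

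Few markers of other lineages were called. Of 18 primitive streak and mesoderm markers 9 were under 1 TPM in every WT spheroid library. The summed level of the 18 was 14 and 15.9 TPM at 24 h and 36.9 and 31.8 TPM at 48 h. The 16 tested had a median log2 fold change of 1.33 (0.51 to 1.42 over the alternatives), and 13 fitted values were above 0. Eomes, a T-box factor, was the only one called, 6.25% of those tested against 3.28% of all genes. It rose from 5.39 and 4.85 TPM to 8.84 and 9.46 TPM (0.86 ± 0.22, called in 8 of 15 alternatives). T, encoding Brachyury, was at 1.62 and 0.747 TPM and then 3.17 and 2.10 TPM (adjusted p = 0.401), and Fgf8, a streak ligand gene, at 0.513 and 0.783 TPM and then 5.62 and 2.67 TPM (adjusted p = 0.235). Of 13 neural markers only Sox1 was called, 7.69% against the 4.86% of all genes that fell. It went from 2.46 and 2.07 TPM to 0.597 and 0.841 TPM (-1.61 ± 0.27). Of 11 trophoblast markers Tead4 and Tfap2c fell, by 1.87 and 0.91, which is 18.2% against 4.86% of all genes. The list median was 0.11 (-0.90 to 0.13 over the alternatives), with 6 of the 11 fitted values above 0. Cdx2 was under 1 TPM throughout. Tfap2c was also the only one of 10 germ cell markers called (10% of that list). None of the 10 was under 1 TPM in every WT spheroid library. Their summed level was 67.5 and 76.7 TPM at 24 h and 77.0 and 92.6 TPM at 48 h. None of 6 tested fibroblast and 9 tested two-cell-like markers was called by edgeR, DESeq2 or limma, and 0 of them had an unadjusted p under 0.05. Of all 10 fibroblast and 14 two-cell-like markers, 5 and 8 stayed under 1 TPM in every WT spheroid library.

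Several sterol synthesis genes rose by small amounts. Of 28 genes of cholesterol and fatty acid synthesis 8 rose and 1 fell, 28.6% and 3.57% against 3.28% and 4.86% of all genes. The median was 0.27, and 23 of the 28 fitted values were above 0. Idi1, encoding an isoprenoid isomerase, rose from 38.6 and 56.8 TPM to 82.5 and 70.7 TPM (0.76 ± 0.13). Hmgcs1, encoding HMG-CoA synthase at the entry of the pathway, rose from 82.3 and 101 TPM to 134 and 129 TPM (0.58 ± 0.11, adjusted p = 0.00253). Sqle, Fdft1 and Dhcr7, which encode enzymes of later steps, rose by 0.46, 0.38 and 0.53. Lss rose on counts (0.54 ± 0.11) with overlapping TPM values. Fasn, the fatty acid synthase gene, rose by 0.33 and the elongase gene Elovl6 fell by 0.33. None of the 9 was called in every alternative, the range being 8 to 12 of 15, and the count of members that rose ran from 0 (limma on either TPM scale) to 14 over the alternatives.

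The promoter of Hmgcs1 is shown because it holds a match to the sterol regulatory element, the sequence bound by SREBP factors. Binding was not measured. The 250 bases before the start are chr13:119690101-119690350 on the plus strand (GRCm38.p6, RefSeq). They are printed 5′ to 3′ with the match in capitals, 137 to 129 bases before the start.
Hmgcs1: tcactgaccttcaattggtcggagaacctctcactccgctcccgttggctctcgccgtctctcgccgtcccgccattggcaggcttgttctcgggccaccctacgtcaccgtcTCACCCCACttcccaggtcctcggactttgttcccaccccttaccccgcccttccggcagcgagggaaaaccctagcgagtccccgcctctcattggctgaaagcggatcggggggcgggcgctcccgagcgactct
The search pattern TCACNCCAC, on either strand, was found in 1.40% of windows of genes that rose, 0.57% of those that fell and 1.17% of all windows of tested genes, which amounts to 8 and 5 windows in the first 2 groups. Of the 6 called genes of cholesterol and fatty acid synthesis with a window, 1 (Hmgcs1) held the pattern.

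Glycolytic genes changed in both directions. Of 32 genes of glycolysis and the hypoxia response 8 rose and 4 fell, 25% and 12.5% against 3.28% and 4.86% of all genes. The median was 0.17, with 2 higher without the first WT library at 24 h and up to 12 in the other alternatives. Pgk1 rose from 464 and 459 TPM to 594 and 588 TPM (0.39 ± 0.07, adjusted p = 0.00116) and Tpi1 from 281 and 281 TPM to 377 and 386 TPM (0.44 ± 0.09), both encoding enzymes of the pathway and called in all alternatives. Pfkl, Pkm, Ldha and Eno1 rose by 0.43, 0.25, 0.25 and 0.19, the last called in 7 of 15 alternatives. At the entry of the pathway, the glucose transporter gene Slc2a3 fell from 275 and 291 TPM to 171 and 164 TPM (-0.77 ± 0.07, adjusted p = 6.87e-07) and the hexokinase genes Hk1 and Hk2 by 0.54 and 0.30. Of 19 tested fatty acid oxidation genes 4 fell (21.1%) and none rose. These were Slc25a20, the carnitine carrier, from 39.8 and 37.9 TPM to 15.0 and 20.1 TPM (-1.08 ± 0.19), and the enzymes Acaa2 (-0.77), Acadm (-0.52) and Echs1 (-0.37). In amino acid metabolism, Asns, encoding asparagine synthetase, fell from 159 and 172 TPM to 79.9 and 72.2 TPM (-1.22 ± 0.08, adjusted p = 1.85e-08), and Gldc, of the glycine cleavage system, rose by 0.27 while Tdh fell by 0.39.

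Few genes of lipid storage were called. Of 23 tested genes of droplet storage and lipolysis 1 rose and 1 fell, shares of the list near the 3.28% and 4.86% of all genes. Acsl3, which activates fatty acids for droplet growth, rose from 32.4 and 29.3 TPM to 45.2 and 55.1 TPM (0.56 ± 0.11), and Agpat2, an acyltransferase gene of triglyceride synthesis, fell by 0.52. Plin2, encoding a droplet coat protein, was at 11.5 and 9.62 TPM and then 9.06 and 8.68 TPM (adjusted p = 0.96), and Pnpla2, encoding the lipase ATGL, at 30.5 and 27.0 TPM and then 31.9 and 29.3 TPM (adjusted p = 0.446). Cidea was at 4.07 and 3.17 TPM in ESCs, 5.06 and 1.88 TPM at 24 h and 0.974 and 0.836 TPM at 48 h. Both 48 h libraries lay below both 24 h libraries, on 117 and 46 estimated counts against 20 and 21, but the difference did not pass the test (-1.91 ± 1.12, adjusted p = 0.397, called in 0 of 13 alternatives).

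Of 30 autophagy and lysosome genes 3 rose and 3 fell, which is 10% of the list each way against 3.28% and 4.86% of all genes. Hexa (0.67), Npc1 (0.65) and Ctsl (0.56), which encode a lysosomal hexosaminidase subunit, the lysosomal cholesterol exporter and a cathepsin, rose. Npc1 went from 9.57 and 11.5 TPM to 16.4 and 16 TPM, and all 3 had been lower at 24 h than in ESCs, by -2.41 for Hexa, -0.56 for Npc1 and -1.18 for Ctsl. The transcription factors Mitf (-1.11) and Tfeb (-0.84, TPM overlapping), which drive lysosomal genes, and the autophagy kinase Ulk1 (-0.79 ± 0.10, adjusted p = 2.13e-05) fell. Lipa, encoding lysosomal acid lipase, gave 5.11 and 5.36 TPM and then 6.69 and 4.51 TPM (0.13 ± 0.27, adjusted p = 0.892).

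Of 20 p53 targets 6 rose and 2 fell (median 0.36), 30% and 10% against 3.28% and 4.86% of all genes. Pmaip1, the BH3-only NOXA gene, rose from 9.71 and 11.8 TPM to 21.4 and 18.8 TPM (0.94 ± 0.14), Ccng1, a cyclin G gene, from 128 and 138 TPM to 199 and 186 TPM (0.56 ± 0.08), and the kinase gene Plk2 by 0.68, all called in every alternative. Mdm2, the p53 ubiquitin ligase gene, rose on counts (0.44) with overlapping TPM values, and Cdkn1a, encoding p21, was at 19.4 and 20.4 TPM and then 29.2 and 27.1 TPM without passing (adjusted p = 0.0548). Of 28 cell cycle and Myc genes 4 fell (14.3%) and 1 rose (3.57%, near the share of all genes). Ccnd3, a D cyclin gene, led the falls, from 148 and 140 TPM to 77.6 and 80.9 TPM (-0.87 ± 0.10). Mycn rose by 0.31. Among 10 LIN28-related RNA regulators, Lin28b and Igf2bp3 rose by 0.75 and 0.34 while Hmga2, Trim71 and Igf2bp1 fell by 0.86, 0.51 and 0.46. Of 10 heat shock genes only Hspb1, a small chaperone gene, was called. It fell from 664 and 619 TPM to 232 and 265 TPM (-1.34 ± 0.10, adjusted p = 3.46e-08).

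The largest changes went beyond these lists. Among genes with at least 5 TPM at the higher time and no overlap of TPM values, 492 rose and 778 fell. Sema6a, encoding a transmembrane semaphorin, rose from 2.05 and 1.85 TPM to 20.6 and 12.2 TPM (3.22 ± 0.31, adjusted p = 2.01e-05). Gbp2b, an interferon-inducible GTPase gene, rose from 0.999 and 0.837 TPM to 8.86 and 7.26 TPM (3.16 ± 0.50) after being at 0 in both ESC libraries. Prtg, encoding protogenin of the early neural tube and epiblast, rose from 1.72 and 1.45 TPM to 7.36 and 6.70 TPM (2.18 ± 0.25). Zfp608 (2.58), 2610528J11Rik (2.44), the mucin glycosyltransferase gene Galnt3 (2.34), the imprinted Magel2 (2.30), the kinase gene Stk39 (2.10) and the antigen peptide trimming enzyme gene Erap1 (2.08) also belonged to the 12 largest rises. Hist1h2af, a replication-dependent histone gene with near-identical copies, had the largest fitted value (5.38 ± 1.16) on 0 and 5 counts at 24 h against 52 and 160 at 48 h, and is uncertain.

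Among the falls, Mras, encoding a RAS-family GTPase, dropped from 21.4 and 14.2 TPM to 0.582 and 2.95 TPM (-2.68 ± 0.28, adjusted p = 1.49e-05), after 75.1 and 77.9 TPM in ESCs. Tgm1, a transglutaminase gene, fell from 9.36 and 10.3 TPM to 1.33 and 2.92 TPM (-2.41 ± 0.25), and Emp1, an epithelial membrane protein gene, from 9.88 and 11 TPM to 1.65 and 3.49 TPM (-2.15 ± 0.19). Aard fell from 55.2 and 57.9 TPM to 9.92 and 15.8 TPM (-2.10 ± 0.15, adjusted p = 3.95e-08), and Mymx, encoding the fusogenic microprotein myomixer, from 79.2 and 70.5 TPM to 17.6 and 20.7 TPM (-1.89 ± 0.23). Msc (-2.34, called in 10 of 15 alternatives), Gm13128 (-2.01), AU015836 (-1.91) and Tead4 (-1.87) followed. The pseudogene Gm7332 went from 104 and 19 counts to 0 and 0, at least 38.6-fold lower against a floor of 3 counts over the group.

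The same interval was fitted in the KO clone with its own 24 h and 48 h libraries. Of the 1418 genes called in WT, 1387 had the same sign in the clone. The same count over all genes tested was not made, so this figure has no background beside it. The naive list gave a median of -1.12 in the clone and -0.92 in WT, and the formative and primed list 0.58 and 0.34. Single genes in the clone gave Klf4 at -2.78 ± 0.10, Nanog at -1.39 ± 0.08, Fgf5 at 4.12 ± 0.38, Otx2 at 0.55 ± 0.09 and Podxl at 0.71 ± 0.09. A test of the genotype-by-time term called 4 of 17424 genes (0.023%), with 894 at an unadjusted p under 0.05. The other two besides Lefty1 and Wt1 had groups at or near 0. Lefty1 in the clone went from 8.40 and 9.52 TPM at 24 h to 76.7 and 81.2 TPM at 48 h, a rise of 3.11 ± 0.13 against 2.02 ± 0.12 in WT (difference 1.08 ± 0.17, adjusted p = 0.0252). Wt1, a zinc-finger factor gene, went from 1.75 and 1.51 TPM to 18.6 and 18.7 TPM in the clone and from 11.9 and 6.72 TPM to 21.8 and 23.2 TPM in WT (difference 2.04 ± 0.34, adjusted p = 0.0356). In both genes the 24 h libraries of the clone lay below those of WT, and each call was made in 7 of 13 alternatives.

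**Figure D5:**
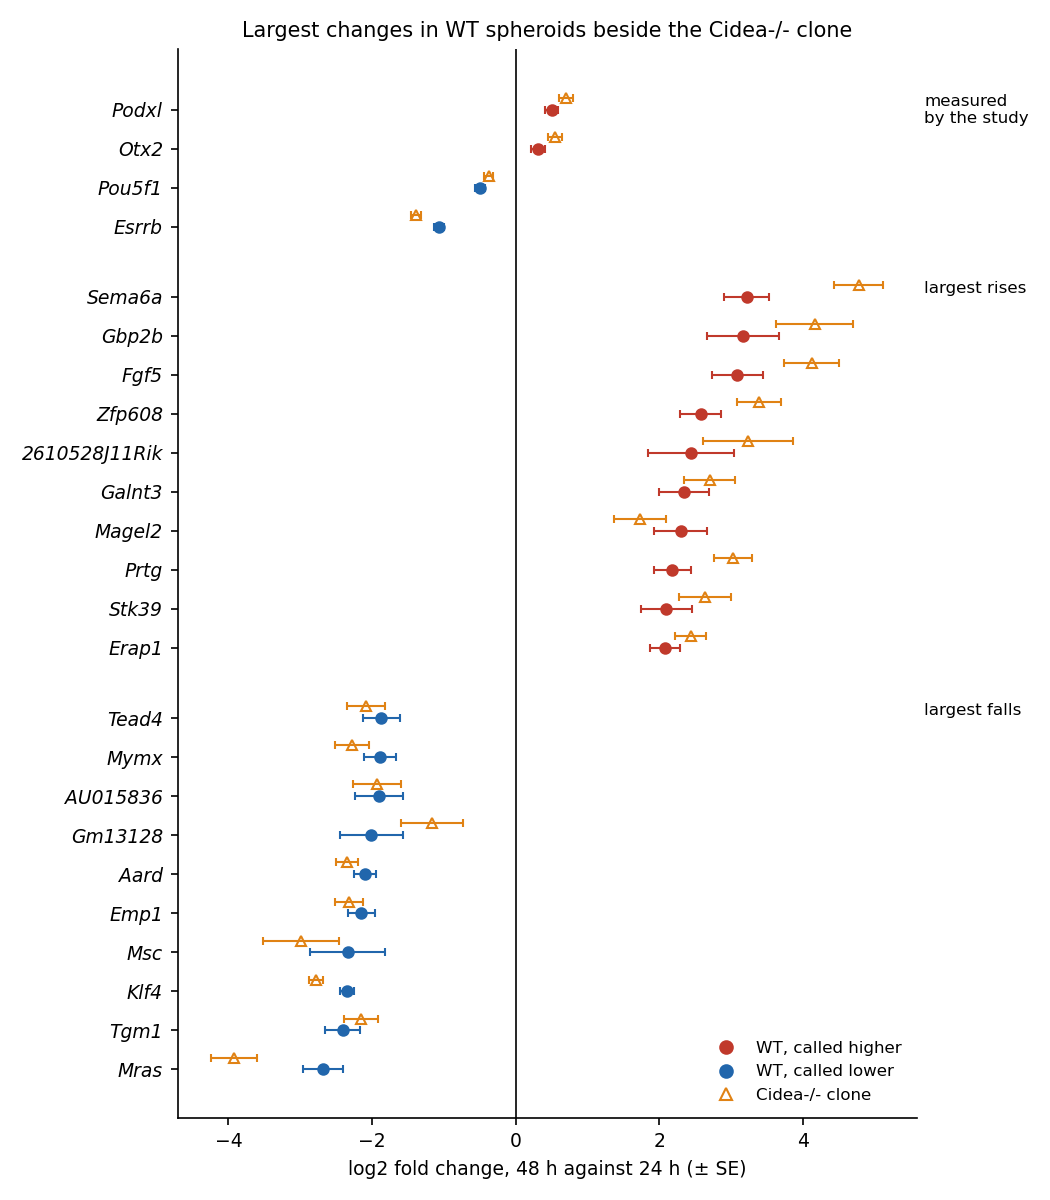
Log2 fold change of 48 h over 24 h ± SE in WT spheroids and in the KO clone for genes among the largest rises and falls and for Podxl, Otx2, Pou5f1 and Esrrb. Each gene lies on the same side of 0 in WT and in the clone.

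The second day was also set against the first within WT, as the difference between the 48 h over 24 h and the 24 h over ESC values. This contrast called 1088 genes (6.24%), of which 464 had the higher value on the second day and 624 on the first. Both days share the 24 h libraries, and the first day also covers the change from LIF medium to the gel. The part of either in the differences was not tested. The 5 largest differences were in genes with at least 1 group at or near 0, namely Ndor1, Pi15, Cyp1a1, Hist1h2af and Gm21761. Cyp1a1, a target of the aryl hydrocarbon receptor, was at 0 in both ESC libraries, at 4.29 and 3.15 TPM at 24 h and at 1.24 and 2.42 TPM at 48 h. Ndor1 was at least 35.1-fold lower at 48 h than at 24 h on 67 and 45 counts against 0 and 0, and Pi15 at least 23.4-fold higher on 0 and 0 counts against 54 and 12. Among well-measured genes with a called difference, Lefty1 (-2.13, then 2.02), Id1 (1.88, then -0.87), Pmaip1 (-1.53, then 0.94) and Hexa (-2.41, then 0.67) had values of opposite sign on the first and second day, and Dnmt3b (2.42, then 1.04) and Pou3f1 (3.71, then 1.94) had values above 0 on both.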

How the data were processed

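RNA was prepared from ESCs before induction and from spheroids freed from Matrigel on ice with recovery solution, as TruSeq stranded mRNA libraries (HiSeq, paired-end). Per the labels, reads were checked with FastQC, trimmed with Trimmomatic 0.33 and quantified with kallisto 0.43.1. The transcript set is not given in the sources used here. The authors deposited, per library and transcript, estimated counts and TPM. Estimated counts were summed per gene through GENCODE vM21 (GRCm38) and rounded to whole numbers. Of 115270 transcripts 113580 (98.5%) matched, and the unmatched took 0.659% to 0.709% of counts.

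All 12 libraries in 6 groups were fitted with edgeR 4.0.16 (R 4.3.3), TMM normalisation, the filterByExpr filter and the quasi-likelihood test, with Benjamini-Hochberg adjustment over 17424 genes. Contrasts were 48 h against 24 h in WT, the same change in the KO clone minus that in WT, and the second minus the first day in WT. The 12 libraries held 28998188 to 38509860 estimated counts, and 3 counts correspond to 0.0841 to 0.102 CPM in WT spheroids. Replicates differed beyond counting noise (chi-square per degree of freedom 11.2 to 32.7), and intervals cover no more than these libraries. Libraries with the same number did not deviate together (correlation 0.03 between 24 h and 48 h in WT), so the numbers were not taken as pairs.

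The 32 gene lists were written from textbook knowledge, with earlier results of these data known, as were the members and the tests. Besides list members, genes were named as the 12 largest rises and 12 largest falls among called genes with separate TPM values and a mean of at least 5 TPM at the higher time, the genes that the study measures in spheroids (Cidea, Pou5f1, Esrrb, Otx2, Podxl), the 4 largest changes per list, and the 5 largest of each other contrast. Some genes that the rule names are not reported here. Pim2 and 2 further lists were added after the values were seen. In simulated data, 200 of 16872 genes were changed in WT at 48 h alone, with all other groups equal. There the fit recovered 66.5%, from 40% at 1.5-fold to 90% at 8-fold, with 14 false calls beside 133 true ones. In the real data 1418 genes were called and the other groups also differ, so these rates may not carry over. The alternatives were DESeq2 1.42.0, its size factors, other count filters, transcript length offsets, limma 3.58.1 on log2(TPM + 1) and log2(TPM + 0.1), fewer libraries, a replicate block, and leaving out each WT spheroid library. The stranded kit marks strand, but pseudoalignment can split reads between near-identical copies.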

Additional observations from a re-analysis of the deposited data

Results flagged for a closer look

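The genotype-by-time test singled out 4 genes whose change from 24 h to 48 h differed between the KO clone and WT. Given as log2 fold change in the clone minus that in WT, Lefty1 differed by 1.08 and Wt1 by 2.04, both rising more in the clone from a lower level at 24 h. Tgtp1, an interferon-inducible GTPase gene with the near-identical copy Tgtp2, differed by 9.31, a fitted value that depends on 24 h levels of 0 and 0.00063 TPM in the clone against 2.03 and 2.84 TPM in WT. Its reads may be divided between the copies. The pseudogene Gm7332 differed by 19.5, with 16.1 and 2.84 TPM at 24 h and 0 and 0 at 48 h in WT, and 0 and 0 at 24 h and 29.6 and 30.7 TPM at 48 h in the clone. This value comes from groups at 0 and is no measure of size.

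The 4 calls were each made in 7 of the 12 or 13 alternatives in which the gene was tested. They were lost when average transcript lengths were used as offsets, by limma on log2(TPM + 1), and without either WT library at 48 h. The clone is a single one, so the deletion and the history of that clone cannot be told apart. Its first 24 h library, with fewer genes detected, entered these differences, and its part was not tested beyond leaving it out, which gave 30 called genes.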

How the results depend on the processing

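Between 24 h and 48 h in WT, 1418 genes were called, against 565 with transcript length offsets, 420 (27.1% higher, against 40.3%) and 475 by limma on log2(TPM + 0.1) and log2(TPM + 1), 2218 without the first KO library at 24 h, and 653 to 926 without 1 WT spheroid library (666 and 875 without the first and second at 24 h, 653 and 926 at 48 h). DESeq2 called 1810 and the fit of the 4 WT spheroid libraries alone 2019. For genotype by time, the 4 calls became 10 with DESeq2, 2 with at least 10 counts in every library, 0 with length offsets, 1 and 0 by limma on the respective scales, 97 with no filter, 30 without the first KO library at 24 h, and 0 to 6 without 1 WT spheroid library. For the second against the first day, 1088 became 355, 211, 253 and 1734 with length offsets, limma on log2(TPM + 0.1), limma on log2(TPM + 1) and without that KO library, and 292 to 833 without 1 WT spheroid library. The cause of these shifts was not tested.

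With a replicate block, which has no support in the labels as a pairing, 1412, 5 and 1066 genes were called. Over all named genes and alternatives, 1533 values kept their direction and side of the threshold, 290 kept direction but lost the call and 1 gained it. Gm21761, which was not called, changed sign in 4 alternatives. Of 119 named genes called, 45 were called in every alternative. With 2 libraries a time, 40% of changes of 1.5-fold were recovered in the simulated data, so genes that were not called may differ by small amounts.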

Other observations

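Genes of antigen presentation and the interferon response formed a further group that rose on the second day. This list of 40 genes was written after Gbp2b and Erap1 had been seen among the largest rises, so its counts are a description. Of 38 tested members 17 rose and 1 fell, 44.7% and 2.63% against 3.28% and 4.86% of all genes. Their median was 1.06 against 0.01 over all genes. The summed level of the 40 genes went from 450 and 475 TPM at 24 h to 775 and 781 TPM at 48 h. Irf1, an interferon regulatory factor, rose from 47.2 and 51.1 TPM to 108 and 110 TPM (1.06 ± 0.15). The class I heavy chain gene H2-K1 rose from 45.5 and 46.6 TPM to 68.6 and 73.8 TPM (0.66 ± 0.13), and Tapbp, encoding the peptide-loading chaperone tapasin, from 21.8 and 26.0 TPM to 45.3 and 40.9 TPM (0.84 ± 0.15). Cxcl16, a transmembrane chemokine gene, rose from 1.96 and 2.11 TPM to 7.58 and 7.80 TPM (1.74 ± 0.32), and Parp9 from 5.94 and 7.84 TPM to 17.2 and 18.7 TPM (1.19 ± 0.23). These 5 genes were called in every alternative.

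The group was not uniform. B2m, encoding the class I light chain, at 27.0 and 17.8 TPM against 23.3 and 24.3 TPM, and H2-D1, a class I heavy chain gene, at 34.1 and 34.1 TPM against 32.5 and 34.8 TPM, did not pass the test, with adjusted p of 0.873 and 0.831. Psmb8, an immunoproteasome subunit gene, was at 3.68 and 2.70 TPM and then 22.8 and 22.1 TPM with a wide error (2.48 ± 1.02, adjusted p = 0.217). Icam1, an adhesion molecule gene, fell from 27.2 and 26.6 TPM to 14.4 and 16.1 TPM (-0.79 ± 0.13). The count of members that rose was 6 to 23 over the alternatives.

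All 13 transcripts encoded by the mitochondrial genome had fitted values above 0, with a median of 0.76, and their summed level went from 51591 and 58434 TPM at 24 h to 97968 and 84579 TPM at 48 h. Of them mt-Nd1, mt-Co1 and mt-Co3 were called, 23.1% against the 3.28% of all genes that rose, and 0 to 13 were over the alternatives. This list too was added after the values were seen, so its counts are a description. ESCs before induction held 72934 and 63444 TPM, between the values at 24 h and those at 48 h.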
